A study of Arabidopsis thaliana with 15 samples.

Results

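The step from 24 h to 72 h in abscisic acid (ABA) was examined in germinated Arabidopsis thaliana seeds of the accession Col-0, as the 3 arrays of seeds held in ABA for 72 h against the 3 arrays of seeds held in it for 24 h, 6 of the 15 arrays of the series. The arrays were chosen by the incubation time in their titles, and no measured value entered the choice. In both groups, as at the other times of 0, 2 and 12 h, seeds had been stratified for 72 h at 4 °C and germinated at 22 °C in constant white light until the radicle emerged. In both groups, as at 2 and 12 h, they were then kept dark at 20 °C on filter paper wetted with 10 µM ABA. The 0 h arrays, from seeds at radicle protrusion with no time in ABA, are the baseline of the time course. Each array measured RNA of 1 biological replicate, a pool of whole seeds collected in bulk from several plants, so that embryo, endosperm and seed coat were measured together. In such samples fewer cells of a type and less RNA per cell cannot be told apart. Seeds incubated for the same times without ABA were not analysed here, so time, darkness and ABA cannot be told apart in any difference given below, nor were the seeds tested for desiccation tolerance in these data.

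ABA is the hormone that holds maturing seeds in dormancy and switches on protective proteins under water shortage. It is bound by PYR/PYL/RCAR receptors, which then inhibit clade A PP2C phosphatases and so release SnRK2 kinases that activate transcription factors such as ABI5 and the ABFs. A seed that has just germinated can still return to this seed programme when ABA is given, with renewed transcription of genes for LEA (late embryogenesis abundant) proteins, storage proteins and oil body proteins. Light drives seedling development through a further set of factors. The bZIP factors HY5 and HYH build up when the COP1-SPA complex that degrades them is shut off, and they induce genes of chloroplast development and of flavonoid pigments.

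Values are log2 expression levels made by the authors with RMA, and a difference of 1 is a doubling on this scale as the array reports it. Over all 27981 loci, 928 passed the test between 72 h and 24 h, which is 3.32% (limma, adjusted p under 0.05, called here). These p-values measure the spread between seed pools of the same time. Of these, 540 (1.93%) rose and 388 (1.39%) fell, and the change was at least 1 for 301 of the rises and 169 of the falls. The preceding step, 24 h against 12 h, shares the 24 h arrays and gave 1835 calls (6.56%). The median difference over all loci was -0.02 and the median size was 0.16. All 3 arrays of 72 h lay beyond all 3 arrays of 24 h for each of the 928 called loci, and this was also so for 30.5% of all loci. Of all 27981 loci, 4117 were higher on all 72 h arrays in this way and 4430 were lower.

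Arrays of the same time had correlations of 0.992 to 0.994 within 72 h and 0.989 to 0.995 within 24 h, against 0.978 to 0.983 between 72 h and 24 h arrays. One array outside the comparison, 2 h replicate 2, stood apart from its group, with a correlation as low as 0.89 within 2 h and an interquartile range of 2.93 against 3.67 to 4.01 on the other arrays. It enters the 72 h against 24 h test through the shared estimate of spread and leaves the differences themselves untouched. Without it, 3588 loci (12.8%) were called, 1809 rises (6.47%) and 1779 falls (6.36%), and these held all 928. Counts of list members are therefore given with all 15 arrays and, for most lists, also without that array. They are to be read beside the shares over all loci. These are 1.93% rises and 1.39% falls with all arrays, and 6.47% and 6.36% without 2 h replicate 2. Leaving out 1 of the 6 compared arrays lowered the total to between 407 and 730, by more than 1.5 times without 24 h replicate 2 (413) or 3 (418) or 72 h replicate 1 (488), 2 (460) or 3 (407). Of the 93 called genes named by rule, 50 kept their call without each of the 15 arrays in turn.

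**Figure D1:**
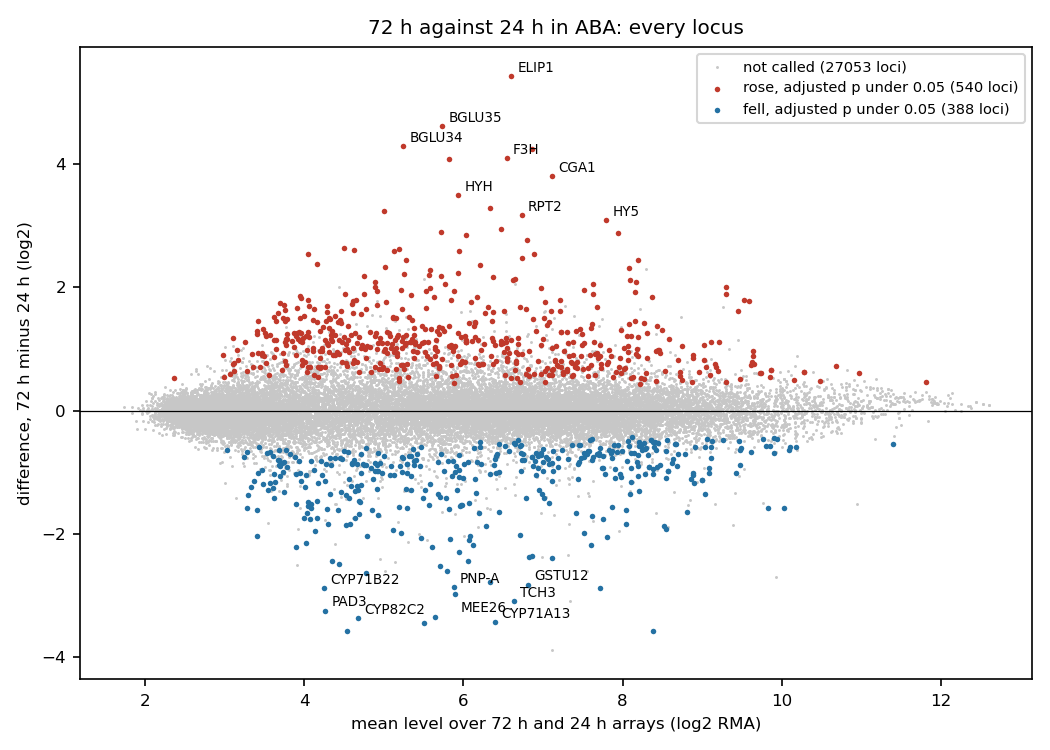
Each point is 1 of 27981 loci, with the mean log2 level over the 72 h and 24 h arrays on the x axis and the log2 difference, 72 h minus 24 h, on the y axis; red points rose (540) and blue points fell (388) at adjusted p under 0.05. The rises reach 5.43 for ELIP1 and the called falls reach -3.58, and most loci lie close to the line at 0.

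ELIP1 and the light signalling factors HY5 and HYH were among the 15 largest rises. The seeds were in the dark at both times according to the labels. ELIP1, an early light-induced protein that protects chloroplast membranes, had the largest rise of all loci. Its levels were 8.87, 9.40 and 9.67 on the 72 h arrays, against 3.96, 3.65 and 4.04 on the 24 h arrays. The 2 groups did not come near each other, and the difference was 5.43 ± 0.39 (log2, SE, adjusted p = 4.02e-06). HY5 stood at 9.16, 9.51 and 9.35 at 72 h, against 6.66, 5.73 and 6.35 at 24 h (difference 3.09 ± 0.27, adjusted p = 3.28e-05). Its close homologue HYH stood at 7.49, 7.77 and 7.78 at 72 h, against 4.17, 3.93 and 4.45 at 24 h (difference 3.5 ± 0.66, adjusted p = 0.00902). For both factors the lowest 72 h array was more than 2 units above the highest 24 h array. HFR1, a bHLH factor that acts in far-red and shade responses, rose by 1.88 ± 0.24 (adjusted p = 0.000572), with 5.29, 5.39 and 5.69 at 72 h and 3.93, 3.44 and 3.35 at 24 h. PIF4, a bHLH factor of growth in darkness and warmth, also rose, by 1.26 ± 0.27 (adjusted p = 0.0199). Of the 19 measured genes of light signalling these 4 rose and none fell, which is 21.1% called against 3.32% of all loci. The list's median difference was 0.19, and without 2 h replicate 2, 7 rose and 1 fell. PIF4 is the member whose call was lost when an array was left out (highest adjusted p 0.0946). The genes for the phytochromes (PHYA to PHYE), the cryptochromes (CRY1, CRY2) and COP1 in that list were not called.

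A further list of 33 regulators of light responses was drawn up once the largest changes were known, so its count describes and does not test. In it, 15 rose and none fell (45.5% called, against 3.32% of all loci), with a median difference of 0.63. Without 2 h replicate 2, 19 rose. CGA1, a GATA factor of greening, was at 9.02, 9.0 and 9.03 at 72 h, against 5.31, 5.24 and 5.08 at 24 h (difference 3.81 ± 0.21, adjusted p = 1.1e-06). Its paralogue GNC rose by 1.61 ± 0.17 (adjusted p = 0.000133), with all 72 h arrays at 7.97 to 8.08 and all 24 h arrays at 6.26 to 6.54. GLK2, a factor that activates genes of chloroplast assembly, rose by 2.08 ± 0.27 (adjusted p = 0.000684). RPT2, a partner of the phototropin photoreceptors in phototropism, was at 8.16, 8.33 and 8.48 at 72 h, against 5.98, 4.58 and 4.87 at 24 h. The 24 h arrays of RPT2 were spread over more than 1 unit and still lay below every 72 h array (difference 3.18 ± 0.50, adjusted p = 0.00272). SPA1 (1.79 ± 0.19) and SPA3 (2.18 ± 0.30), the partners of COP1 that restrain light responses, rose as well, at adjusted p = 0.000157 and 0.000935. RUP1 and RUP2, which switch off the UV-B receptor, rose by 1.45 ± 0.24 and 1.25 ± 0.26, and the B-box factor STO rose by 1.62 ± 0.18 (adjusted p = 0.000196). In this list 10 of the 15 calls held without each single array. PKS1, PKS2, COR27, RUP2 and SIGE, whose protein is a sigma factor of plastid transcription, lost theirs (highest adjusted p per gene 0.0889 to 0.195).

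Most of these genes had fallen early in the incubation. The comparison of 12 h with 0 h spans the move of the seeds from white light to darkness and ABA. Its means share no array with 72 h against 24 h, but both tests use the same estimate of spread per locus from all 15 arrays. A locus with a small spread is thus likelier to be called in both. At 12 h against 0 h, 3722 loci (13.3%) rose and 3284 (11.7%) fell. Of the 15 called members of the further light list, 14 had fallen at 12 h and none had risen. Of the 4 risen light signalling genes, HY5, HYH and HFR1 had fallen at 12 h and PIF4 had risen. ELIP1 averaged 10.86, 7.53, 3.36, 3.88 and 9.31 at 0, 2, 12, 24 and 72 h. CGA1 averaged 7.95, 6.30, 5.68, 5.21 and 9.02 over the same times, so its 72 h mean stood above the 0 h mean, and HY5 did likewise with 7.64 at 0 h and 9.34 at 72 h. HYH did not return to its 0 h mean of 8.85, having reached 7.68. Among all 540 rises, 281 (52%) were falls at 12 h and 52 (9.63%) were rises, and these 281 made up 8.56% of all falls at 12 h and the 52 made up 1.4% of all rises. Among the 388 falls, 122 (31.4%) had been rises at 12 h, 3.28% of the rises, and 66 (17%) had been falls, 2.01% of the falls.

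**Figure D2:**
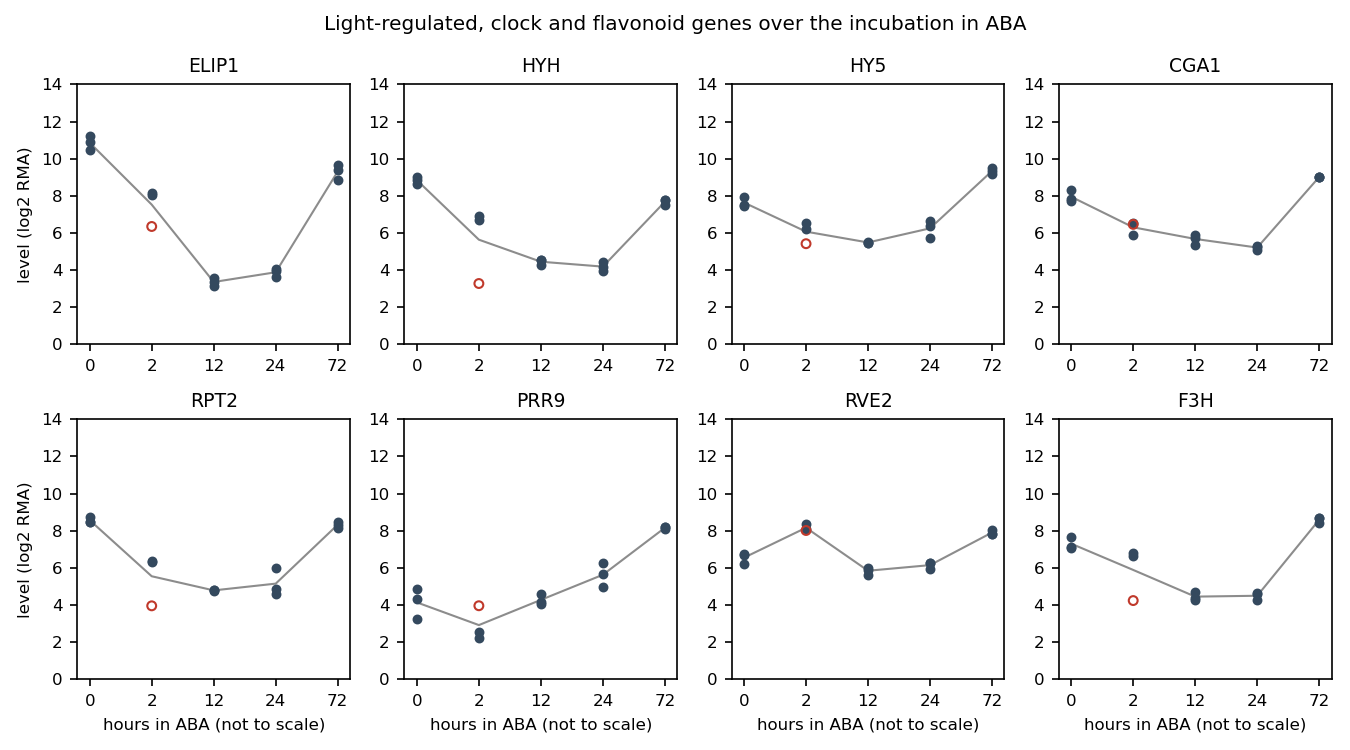
Log2 level on every array (points) and the mean of each time (grey line) at 0, 2, 12, 24 and 72 h in ABA for 8 genes; the open red circle is 2 h replicate 2, the array that stood apart. ELIP1, HYH, HY5, CGA1, RPT2 and F3H are high at 0 h, low at 12 and 24 h and high again at 72 h, while PRR9 is low at 0 h and highest at 72 h.

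Every called gene of the circadian clock list was a rise. Of 24 measured genes 7 rose and none fell, which is 29.2% called against 3.32% of all loci (12 rose without 2 h replicate 2). The median difference was 0.48. PRR9, a morning-phased repressor, was at 8.09, 8.20 and 8.18 at 72 h, against 4.97, 5.65 and 6.25 at 24 h (difference 2.53 ± 0.45, adjusted p = 0.00631). The locus AT1G18330, a MYB factor of the REVEILLE family listed as EPR1, was at 9.23, 9.49 and 9.53 at 72 h, against 6.93, 6.86 and 7.13 at 24 h (2.44 ± 0.28, adjusted p = 0.000239). RVE2 rose by 1.76 ± 0.18 (adjusted p = 0.000106), the evening gene ELF4 by 1.78 ± 0.32 (adjusted p = 0.00764) and TOC1 by 1.12 ± 0.15 (adjusted p = 0.000779). Morning and evening genes were thus both among the rises. PRR5 (1.31 ± 0.28) and RVE1 (1.25 ± 0.31) completed the 7. At 12 h against 0 h, 3 of the 7 had fallen and 2 had risen. TOC1, which the naming rule does not reach, and these 2 were named after their values were seen. The calls of RVE1, PRR5 and ELF4 did not survive the removal of every array (highest adjusted p 0.166, 0.0778 and 0.0501, the last without 24 h replicate 2). The labels give no time of day for the harvests, so a clock phase cannot be set beside these values.

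Of 20 measured genes of chlorophyll synthesis and ELIPs, ELIP1 and PORA rose and none fell, which is 10% called against 3.32% of all loci (4 rose and 2 fell without 2 h replicate 2). PORA, the protochlorophyllide reductase typical of dark-grown seedlings, was at 6.18, 6.74 and 6.57 at 72 h, against 4.86, 3.42 and 3.89 at 24 h (difference 2.44 ± 0.38, adjusted p = 0.00266). Of 46 measured nuclear photosynthesis genes (2.17% called) none rose and PSBQ-2, an extrinsic subunit of photosystem II, fell (-1.02 ± 0.24, adjusted p = 0.0353, up to 0.165 with an array left out). The median of that list was -0.05, and 42 of the 46 had fallen at 12 h against 0 h. Without 2 h replicate 2, 5 rose and 3 fell. Genes of the plastid genome had a median difference of 0.21. Of the 132 loci 92 were higher on all 72 h arrays and 4 lower, beside 4117 and 4430 of all 27981 loci. Of the 132 plastid loci 6 rose (4.55% called, and 35 rises without 2 h replicate 2) and none fell. Of the 6, 2 (ATCG00990 and ATCG01140) hold identical values. No call was left after each array was centred on its own median, where the list's median was 0.19. All 6 calls were also lost without some single array (highest adjusted p 0.0858 to 0.214).

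Among 24 measured flavonoid genes 4 rose and none fell (16.7% called, against 3.32% of all loci). The list's median was nevertheless -0.03, and 4 rose and 1 fell without 2 h replicate 2. F3H, the flavanone hydroxylase near the entry of the pathway, was at 8.66, 8.43 and 8.69 at 72 h, against 4.59, 4.25 and 4.63 at 24 h (difference 4.1 ± 0.48, adjusted p = 0.000283). The lowest 72 h array was more than 3 units above the highest 24 h array. AT3G51238, a long noncoding RNA with a rise of 4.24 ± 0.41 (adjusted p = 7.19e-05), overlaps the F3H locus in the reference table, and the strand each probe set reads was not known, so the 2 signals cannot be told apart. TT7, the flavonoid 3' hydroxylase, rose by 1.5 ± 0.25 (adjusted p = 0.0046). MYB90, an activator of anthocyanin genes, rose by 2.59 ± 0.41 (adjusted p = 0.00287), with 6.75, 7.46 and 7.51 at 72 h and 5.05, 4.13 and 4.77 at 24 h. MYB12, an activator of flavonol genes, rose by 1.14 ± 0.28 from a low level (adjusted p = 0.0393, up to 0.17 with an array left out). In 9 of the 24 genes the 72 h mean was below 3.15, the lower quartile of the levels of all loci on the 24 h and 72 h arrays.

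The largest rises also held genes outside the light and flavonoid lists. Being outside a list does not show that a gene has no part in what the list covers. BGLU35 and BGLU34, also known as TGG5 and TGG4, are myrosinases of roots, which split glucosinolates. BGLU35 was at 7.76, 8.17 and 8.18 at 72 h, against 4.67, 3.18 and 2.43 at 24 h (difference 4.61 ± 0.46, adjusted p = 8.82e-05). BGLU34 was at 6.86, 7.77 and 7.52 at 72 h, against 3.78, 2.57 and 2.94 at 24 h (4.29 ± 0.30, adjusted p = 3.65e-06). The 24 h mean of BGLU34, 3.10, lay below the lower quartile of levels. Unlike ELIP1 or HY5, these myrosinase genes had been low throughout, with means of 2.4 to 3.43 for BGLU34 and BGLU35 at 0, 2, 12 and 24 h. AT5G44440 had the same course, at 3.12, 3.17, 2.78 and 3.78 before and 7.87 at 72 h (4.09 ± 0.25, adjusted p = 1.93e-06). SAHH2, an adenosylhomocysteine hydrolase of the methylation cycle, rose by 2.95 ± 0.50 (adjusted p = 0.00431). The loci AT2G25450, AT3G52740, AT4G21870 and AT2G16365 completed the 15 largest rises, with differences of 2.88 to 3.29. AT4G21870 was also the single called member of the list of 19 genes of small heat shock proteins and HSP101, whose median was 0.02.

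**Figure D3:**
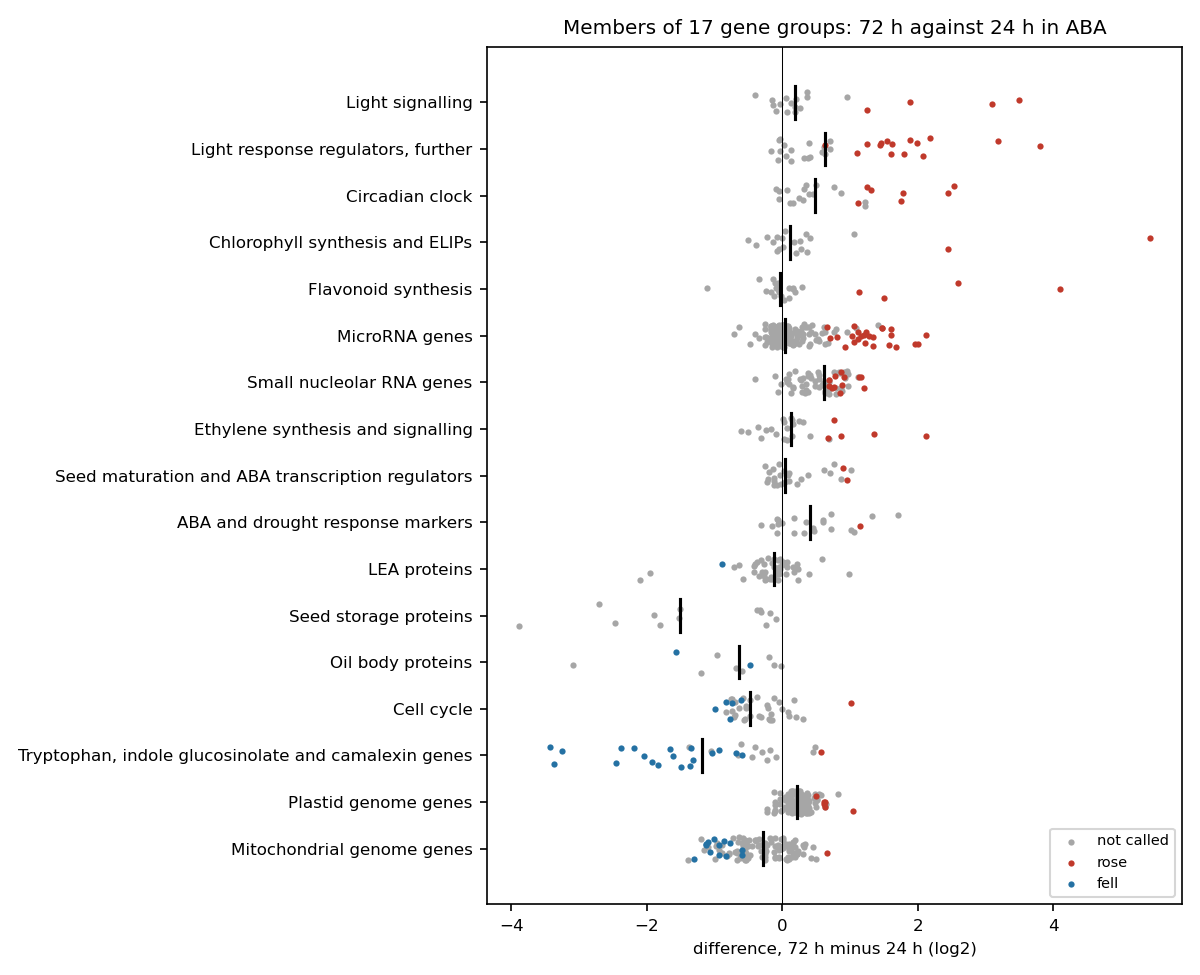
Log2 difference, 72 h minus 24 h, of each measured member (points) of 17 gene groups, with the median as a black bar; red members rose and blue members fell at adjusted p under 0.05 with all 15 arrays, and vertical spread within a group is only to separate points. Light, clock and flavonoid groups have their called members to the right of 0, tryptophan-derived compound, oil body and mitochondrial groups mostly to the left, and storage proteins have a median of -1.51 without a called member.

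Several of the largest falls were in genes that make indole compounds from tryptophan, after AT3G16530, AT2G05580 and AT2G15220, the 3 largest called falls. Camalexin, the main antimicrobial compound of Arabidopsis, and the indole glucosinolates both start from indole-3-acetaldoxime, which CYP79B2 and CYP79B3 make from tryptophan. CYP71A13, the next enzyme towards camalexin, was at 5.47, 4.42 and 4.15 at 72 h, against 8.24, 8.14 and 7.94 at 24 h (difference -3.43 ± 0.49, adjusted p = 0.00141). PAD3, the last enzyme of camalexin synthesis, was at 2.81, 2.66 and 2.43 at 72 h, against 6.09, 5.44 and 6.11 at 24 h (-3.25 ± 0.31, adjusted p = 7.19e-05). Its 72 h mean of 2.64 lay below the lower quartile of levels. CYP82C2, which acts in a related indole pathway of pathogen defence, was at 3.03, 3.10 and 2.85 at 72 h, against 6.57, 6.33 and 6.19 at 24 h (-3.37 ± 0.20, adjusted p = 1.46e-06). For all 3 enzymes the groups were more than 2 units apart. CYP82C2 had averaged 3.04, 3.24 and 3.08 at 0, 2 and 12 h, so 24 h was the single time with a high level.

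Enzymes and regulators shared by the indole branch fell as well. MYB51, the MYB factor that activates indole glucosinolate genes, was at 5.0, 5.12 and 4.98 at 72 h, against 7.16, 7.27 and 7.21 at 24 h (difference -2.18 ± 0.15, adjusted p = 3.65e-06). CYP79B2 fell by 1.61 ± 0.33 (log2, adjusted p = 0.0142) and CYP83B1, the step that commits to indole glucosinolates, by 1.35 ± 0.20 (adjusted p = 0.00195). Of 23 measured genes listed under glucosinolate synthesis and myrosinases, these 3 and SUR1 fell and none rose, at a list median of -0.14. Without 2 h replicate 2, 7 fell and 1 rose. The root myrosinases BGLU35 and BGLU34, which rose by 4.61 and 4.29, were not in this list, so its counts leave them out. CYP79B3 differed by -1.37 (adjusted p = 0.093). The calls of CYP79B2 and SUR1 were lost when some arrays were left out (highest adjusted p 0.0635 and 0.124). In the list of 14 defence and jasmonate genes, 21.4% were called, and the median was -0.12. CYP71A13 and PAD3 fell, while PAD4, a lipase-like regulator of salicylic acid defence, rose by 1.34 ± 0.18 (adjusted p = 0.000872).

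A list of 33 genes of tryptophan, indole glucosinolate and camalexin synthesis was put together after these values had been seen, and its count is a description. Of the 32 measured, 19 fell and 1 rose (62.5% called, against 3.32% of all loci), with a median difference of -1.18. Without 2 h replicate 2, 25 fell and 3 rose. ASA1, the rate-controlling anthranilate synthase of tryptophan synthesis, was at 6.14, 6.48 and 6.36 at 72 h, against 8.01, 7.68 and 7.77 at 24 h (difference -1.49 ± 0.16, adjusted p = 0.000133). TRP1 fell by 0.94 ± 0.14 (adjusted p = 0.00232) and TSA1, the alpha subunit of tryptophan synthase, by 1.66 ± 0.27 (adjusted p = 0.00346). CYP81F2, which modifies indole glucosinolates for defence against microbes, fell by 2.45 ± 0.20 (adjusted p = 1.98e-05), and CYP81F4, of the same family, was the member that rose (0.57 ± 0.15, adjusted p = 0.0487). The methyltransferases IGMT1 to IGMT4, the camalexin factor WRKY33 and CYP71A12 were also among the falls. Of the 20 calls, 9 held without each single array. The other 11, among them WRKY33, IGMT1 to IGMT4, CYP81F4, CYP71A12 and CYP79B2, had highest adjusted p values of 0.0521 to 0.192.

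**Figure D4:**
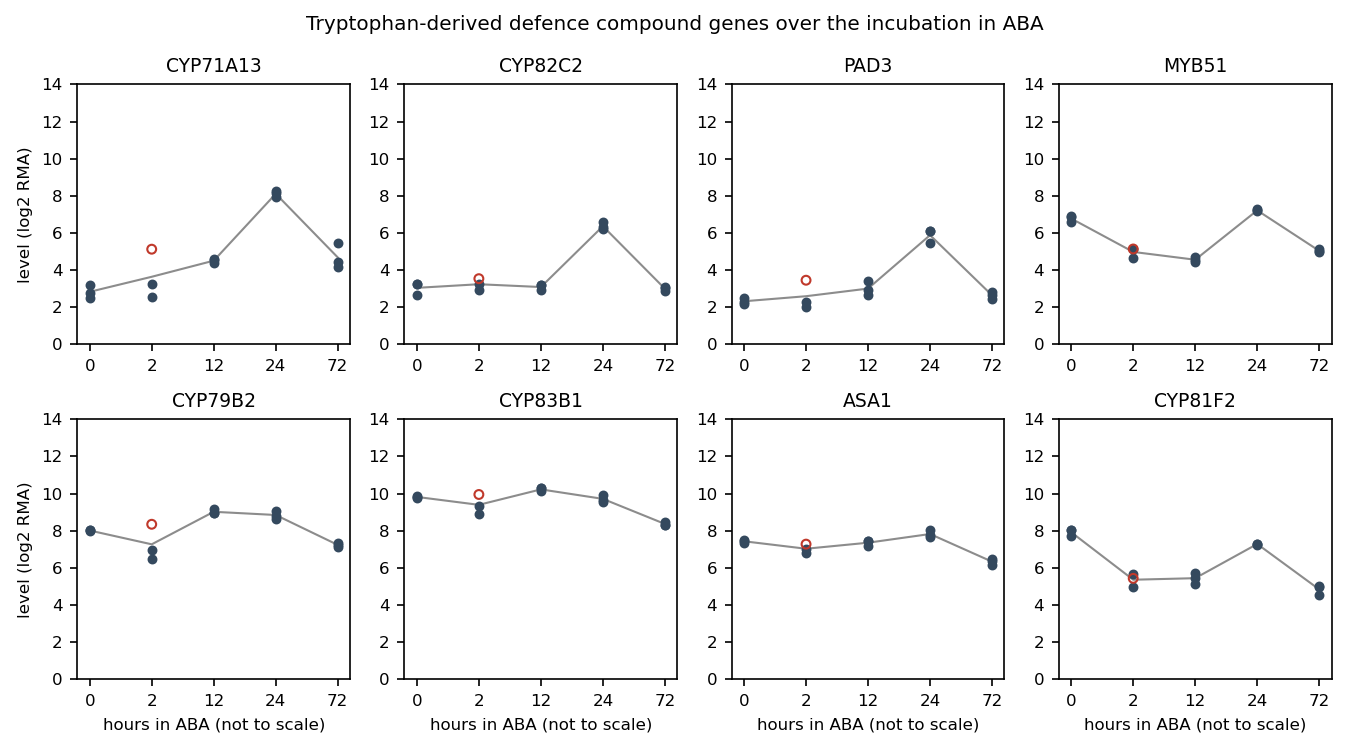
Log2 level on every array (points) and the mean of each time (grey line) at 0, 2, 12, 24 and 72 h in ABA for 8 genes of tryptophan, indole glucosinolate and camalexin synthesis; the open red circle is 2 h replicate 2. CYP71A13, CYP82C2 and PAD3 peak at 24 h, and all 8 are lower on every 72 h array than on any 24 h array.

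Other large falls were in genes of several kinds. TCH3, a calmodulin-like calcium sensor known for its induction by touch, was at 5.97, 4.47 and 4.83 at 72 h, against 7.80, 8.32 and 8.42 at 24 h (difference -3.09 ± 0.54, adjusted p = 0.00533). PNP-A, a secreted natriuretic peptide, fell by 2.87 ± 0.49 (adjusted p = 0.0046), the glutathione transferase GSTU12 by 2.82 ± 0.36 (adjusted p = 0.000499) and the patatin-like lipase PLA2A by 2.64 ± 0.53 (adjusted p = 0.0129). MEE26 (-2.97 ± 0.34) and the cytochrome P450 CYP71B22 (-2.88 ± 0.34) fell at adjusted p = 0.000266 and 0.000297. The loci AT3G16530, AT2G05580, AT2G15220, AT1G26380, AT5G47550 and AT1G15125 made up the rest of the 15 largest falls, at -2.79 to -3.58. That these loci are given here does not show that they lie outside the indole pathways above. PLA2A, AT1G15125 and AT2G05580 lost their calls when an array was left out (highest adjusted p 0.0597, 0.0708 and 0.175).

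Of 12 seed and ABA genes named whatever their values, none was called with all arrays. ABI5, the bZIP factor at the end of the ABA signalling chain in seeds, was at 9.75, 9.64 and 9.62 at 72 h, against 9.71, 9.83 and 9.71 at 24 h, so the groups overlapped (difference -0.08 ± 0.14, adjusted p = 0.971). ABI3, the master regulator of seed maturation, overlapped too, at 8.91, 8.85 and 8.95 at 72 h and 8.93, 9.14 and 9.05 at 24 h (-0.14 ± 0.21, adjusted p = 0.957). FUS3 (-0.20 ± 0.28) and the dormancy gene DOG1 (0.22 ± 0.37) were not called either. The LEA genes EM1 (-0.25 ± 0.20) and GEA6, also called EM6 (0.06 ± 0.27), the dehydrin RAB18 (0.02 ± 0.35) and LTI65, also called RD29B (-0.06 ± 0.20), had adjusted p of 0.742 to 0.999. Over all alternatives EM1 ranged over 0.0457 to 0.987, and the other 3 and ABI3, ABI5, FUS3 and DOG1 were called in none. RAB18 was at 11.50 to 11.58 at 72 h and at 11.50 to 11.56 at 24 h, far above its 0 h mean of 6.24. Of 51 measured LEA genes RAB28 fell (-0.90 ± 0.17, adjusted p = 0.00931), none rose and the median was -0.12. The 1 fall is 1.96% of the list, beside 1.39% of all loci that fell. With 2 h replicate 2 left out, 8 LEA genes fell and 1 rose.

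Calls among storage protein genes depended on 2 h replicate 2. None of 13 measured storage genes was called with all arrays, yet the median difference was -1.51 and 10 of the 13 were lower on every 72 h array than on any 24 h array. Over all 27981 loci, 4430 were lower in this way. At an unadjusted p under 0.05, 6 were lower and none higher. SESA5, a 2S albumin, was at 6.22, 4.38 and 4.9 at 72 h, against 7.61, 10.03 and 9.54 at 24 h (difference -3.89 ± 1.1, adjusted p = 0.0765). CRU3, a 12S cruciferin, was at 8.96, 7.95 and 8.79 at 72 h, against 10.72, 11.61 and 11.49 at 24 h (-2.70 ± 0.88, adjusted p = 0.13), and CRA1, another cruciferin, at 10.47, 9.86 and 10.21 at 72 h, against 11.49, 11.81 and 11.81 at 24 h (-1.52 ± 0.64, adjusted p = 0.284). In all 3 genes 24 h replicate 1 was the lowest 24 h array and 72 h replicate 1 the highest 72 h array, and the groups did not overlap. The 2 h arrays spread widely, with SESA5 at 5.64, 11.37 and 6.42, and replicate 2 was the high array for all 3 genes. Without that array 7 of the 13 storage genes fell and none rose, with adjusted p = 0.000263 for SESA5, 5.01e-05 for CRU3 and 0.00014 for CRA1. Across all alternatives the adjusted p ranged over 6.13e-06 to 0.284 for SESA5, 4.9e-06 to 0.383 for CRU3 and 1.78e-05 to 0.579 for CRA1. The sign was the same throughout, but many of these alternatives leave the difference itself unchanged. PAP85, a vicilin-like protein, and the loci AT2G28490, AT2G18540 and AT4G36700 of the same list differed by -0.19 to -0.33.

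All 10 measured oil body genes had differences below 0. Of these, OLEO1 (difference -1.57 ± 0.38, adjusted p = 0.0391) and OLEO3 (-0.48 ± 0.11, adjusted p = 0.0323) fell, both oleosins that coat seed oil bodies. Called members made up 20% of the list, against 3.32% of all loci. On all 72 h arrays 8 of the 10 were below every 24 h array, beside 4430 of all 27981 loci. OLEO1 was at 9.40, 9.06 and 9.26 at 72 h, against 10.65, 10.89 and 10.91 at 24 h. Without 2 h replicate 2, 7 of the 10 fell, and with some other arrays left out neither OLEO1 nor OLEO3 was called (highest adjusted p 0.149 and 0.161). With each array centred on its median 1 of the 10 fell. OLEO2, another seed oleosin, was at 11.07 to 11.12 at 72 h and 11.19 to 11.25 at 24 h (-0.12 ± 0.34, adjusted p = 0.994). The 1-Cys peroxiredoxin PER1 (-0.41 ± 0.36) and the vacuolar aquaporin TIP3;1 (-0.49 ± 0.84), further seed genes, were not called with all arrays, though both were lower on all 72 h arrays. Their adjusted p ranged over 0.0286 to 0.988 for PER1 and over 0.0479 to 1 for TIP3;1 across the alternatives.

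**Figure D5:**
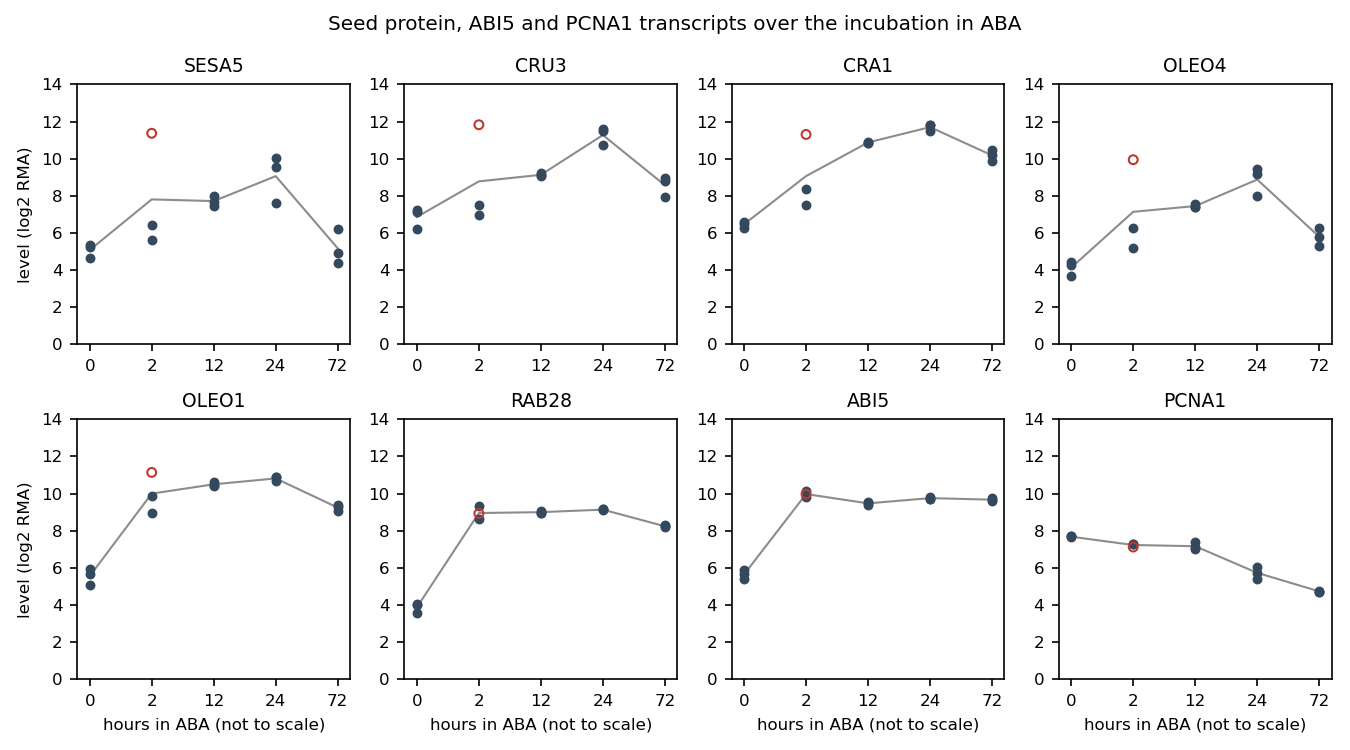
Log2 level on every array (points) and the mean of each time (grey line) at 0, 2, 12, 24 and 72 h in ABA for storage (SESA5, CRU3, CRA1), oil body (OLEO4, OLEO1), LEA (RAB28), ABI5 and PCNA1 transcripts; the open red circle is 2 h replicate 2. For the storage genes that array lies above the other 2 h arrays, and the level is highest at 24 h and lower at 72 h, whereas ABI5 averages between 9.47 and 9.97 from 2 h on.

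In the lists of ABA perception, response, synthesis and breakdown, every call was a rise. RAB28, the LEA gene given above that fell, is not in these lists. PYL4, a receptor, rose by 1.45 ± 0.25 (adjusted p = 0.00469), with 8.64, 9.15 and 8.86 at 72 h and 8.09, 7.0 and 7.2 at 24 h. ABI1, a clade A PP2C that the receptors inhibit, was at 8.25, 8.33 and 8.32 at 72 h, against 7.34, 7.40 and 7.49 at 24 h (0.89 ± 0.17, adjusted p = 0.00987). ABF4, a bZIP factor that activates ABA response genes, rose by 0.96 ± 0.16 (adjusted p = 0.00342). These were 1 of 14 receptors (7.14% called, median 0.14), 1 of 9 phosphatases (11.1%, median 0.03) and, with WRI1, an activator of seed oil synthesis (0.89 ± 0.21, adjusted p = 0.0314), 2 of 27 seed and ABA transcription regulators (7.41%, median 0.04), beside 1.93% of all loci that rose. None of 10 SnRK2 kinases was called (median 0.24; 3 were higher at an unadjusted p under 0.05), SNRK2.7 having the largest difference at 1.24 ± 0.37 (adjusted p = 0.097). KIN1, a small cold- and ABA-induced protein, was the single call among 22 ABA and drought markers (1.14 ± 0.25, adjusted p = 0.0209), whose median was 0.40. On all 72 h arrays 12 of the 22 were higher, beside 4117 of all 27981 loci. CYP707A2, which breaks ABA down, was the single call among 16 genes of ABA synthesis and breakdown (0.92 ± 0.21, adjusted p = 0.0291). WRI1, KIN1 and CYP707A2 lost their calls when an array was left out (highest adjusted p 0.156, 0.103 and 0.102). Without 2 h replicate 2 the rises numbered 4 receptors, 1 phosphatase, 3 kinases, 8 transcription regulators, 8 markers and 3 genes of ABA synthesis and breakdown, and none of these lists had a fall.

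Growth hormones and root hairs also gave upward calls. GA3OX2, which makes active gibberellin, was at 9.09, 9.20 and 9.41 at 72 h, against 7.47, 6.63 and 6.66 at 24 h (difference 2.31 ± 0.29, adjusted p = 0.000436). GA2OX2, which inactivates gibberellin (0.81 ± 0.19, adjusted p = 0.0299), and the gibberellin-regulated GASA4 (0.46 ± 0.12, adjusted p = 0.0448) rose too. Thus 3 of 31 gibberellin genes were called (9.68%, against 3.32% of all loci), or 5 without 2 h replicate 2, at a median of -0.03. Of 25 ethylene genes 5 rose (20% called, and 7 rises without 2 h replicate 2) and none fell, with a median of 0.13. The receptor ETR2 rose by 1.36 ± 0.16 (adjusted p = 0.000382), with 6.2, 6.65 and 6.27 at 72 h and 5.11, 5.0 and 4.93 at 24 h. The ACC oxidase AT1G77330, for the last step of ethylene synthesis, rose by 2.12 ± 0.23 (adjusted p = 0.000179), and the F-box gene EBF2 (0.76 ± 0.19) and the receptor ERS1 (0.67 ± 0.13) were also among the 5. All 5 had fallen at 12 h against 0 h. With each array centred on its median, 3 ethylene genes rose. Of 20 auxin genes AXR3 (2.2 ± 0.51, adjusted p = 0.0308) and IAA2 (1.29 ± 0.25, adjusted p = 0.0106), both Aux/IAA repressors, rose (10% called). Without 2 h replicate 2, 5 auxin genes rose and 1 fell. RHD6 (1.06 ± 0.14, adjusted p = 0.000604), RHD2 (1.43 ± 0.21, adjusted p = 0.00189) and RSL4 (1.12 ± 0.21, adjusted p = 0.00981), that is 2 bHLH factors and the NADPH oxidase of root hair growth, were the 3 called of 18 root hair genes (16.7%), with a median of 0.21. The calls of GA2OX2, GASA4, EBF2, ERS1, AXR3, IAA2 and RSL4 were lost when some arrays were left out (highest adjusted p 0.0559 to 0.192).

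Calls among cell division genes were mostly falls. Of 38 measured cell cycle genes 5 fell and 1 rose (15.8% called, against 3.32% of all loci), and the median was -0.47. On all 72 h arrays 23 of the 38 were below every 24 h array, beside 4430 of all 27981 loci. Without 2 h replicate 2 the falls numbered 22 and the rise stayed at 1. PCNA1, the sliding clamp of DNA replication, was at 4.70, 4.77 and 4.72 at 72 h, against 6.03, 5.74 and 5.41 at 24 h (difference -1.0 ± 0.15, adjusted p = 0.00243). Its means had been 7.68, 7.23 and 7.16 at 0, 2 and 12 h. MCM5 (-0.78 ± 0.17, adjusted p = 0.0207) and MCM2 (-0.74 ± 0.17, adjusted p = 0.027), subunits of the replicative helicase, and the mitotic cyclin CYCB1;4 (-0.83 ± 0.17, adjusted p = 0.0145) fell, as did the helicase subunit PRL. The rise was KRP2, an inhibitor of cyclin-dependent kinases (1.01 ± 0.19, adjusted p = 0.0085). PCNA1 is the call that held without each single array, and those of KRP2, CYCB1;4, MCM5, MCM2 and PRL did not (highest adjusted p 0.054 to 0.155). Cell wall loosening was covered by 41 genes of expansins and xyloglucan transferases, of which XTH32 rose (1.49 ± 0.19, adjusted p = 0.000469) and XTH24 (-1.62 ± 0.37), XTH18 (-1.23 ± 0.31) and EXPA14 (-0.75 ± 0.19) fell, with adjusted p of 0.0287 to 0.0485 that rose to 0.119 to 0.187 with an array left out. The median of that list was -0.09, with 6 rises and 8 falls without 2 h replicate 2 and 1 fall with each array centred on its median.

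Of 17 genes induced by darkness or sugar starvation 3 fell and none rose (median -0.16, beside 1.39% of all loci that fell), the glutamate dehydrogenases GDH2 (-1.1 ± 0.23, adjusted p = 0.0161) and GDH1 (-0.89 ± 0.20, adjusted p = 0.0277) and the F-box gene AT1G80440 (-1.67 ± 0.33, adjusted p = 0.0129). Of 22 antioxidant and tocopherol genes 3 fell and none rose (13.6% called, median -0.18), namely the catalase CAT1 (-1.11 ± 0.21, adjusted p = 0.00902), the iron superoxide dismutase FSD2 (-0.77 ± 0.15, adjusted p = 0.0105) and the copper/zinc superoxide dismutase CSD2 (-0.44 ± 0.11, adjusted p = 0.0417). ADH1, alcohol dehydrogenase, was the single call of 16 hypoxia genes (-1.34 ± 0.26, adjusted p = 0.0107), SIP1, a raffinose synthase, of 18 sucrose and raffinose genes (0.67 ± 0.15, adjusted p = 0.0286), and MOD1, an enoyl reductase of fatty acid synthesis, of 21 seed oil synthesis genes (-0.61 ± 0.15, adjusted p = 0.0389). All 9 of these calls were lost with some array left out (highest adjusted p 0.058 to 0.167). Breakdown of branched-chain amino acids (16 genes), autophagy (26), senescence (16), seed oil breakdown (23), cytosolic ribosomal proteins (38), ribosome biogenesis (12), aquaporins (23), proline metabolism (6) and Polycomb with PICKLE (9) had no called member (limma). At an unadjusted p under 0.05 they held 4, 1, 4, 4, 2, 2, 5, 2 and 0 genes in that order. Without 2 h replicate 2 the dark and starvation genes gave 5 falls, antioxidants 6 falls and 2 rises, hypoxia genes 3 falls and 2 rises, sucrose and raffinose genes 2 falls and 4 rises, and seed oil synthesis 5 falls and 2 rises, while the 9 lists without a call then had 0 to 4 rises and 0 to 4 falls each. In the lists without a call the members with the largest differences were DIN4 (-0.64), ATG13 (0.46), NAC083 (1.15), AAE7 (-0.48), RPL3B (-0.69), AT5G14520 (0.34), GAMMA-TIP (1.34), ERD5 (0.61) and CLF (0.41).

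Genes of the mitochondrial genome had a median difference below 0. Of 129 loci 13 fell (12 distinct signals, since ATMG00170 and ATMG00620 hold identical values) and 1 rose, which is 10.9% called against 3.32% of all loci. The median was -0.29. On all 72 h arrays 71 were lower and 17 higher, beside 4430 and 4117 of all 27981 loci. In the fit without 2 h replicate 2, 57 fell and 2 rose. ATMG01050 was at 7.71, 7.34 and 7.60 at 72 h, against 8.87, 8.85 and 8.84 at 24 h (difference -1.31 ± 0.20, adjusted p = 0.00202), and ATMG01090 fell by 1.01 ± 0.15 (adjusted p = 0.00213). Of the 14 calls, 6 held without each single array and the others reached adjusted p of 0.061 to 0.203. Centred on each array's median, 15 fell and none rose.

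Markers of seed parts and meristems were checked as lists. None of 13 endosperm and seed coat markers was called, and the median was 0.02, with 4 lower and none higher at an unadjusted p under 0.05. The extensin-like endosperm marker AT2G27380, which shares the name EPR1 with the clock gene above, differed most, at 8.85, 8.72 and 8.67 at 72 h and 9.86, 10.29 and 10.11 at 24 h (difference -1.34 ± 0.45, adjusted p = 0.148). Without 2 h replicate 2, 4 of the 13 fell, and their part in the falls above was not tested. None of 5 root meristem, 4 shoot meristem or 9 xylem markers was called, the largest differences being PLT2 (0.54), CLV3 (-0.29) and IRX12 (0.75). At an unadjusted p under 0.05 they held 1, 0 and 1 genes.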

How the data were processed

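The data were log2 values of 15 Affymetrix arrays, deposited by the authors as a table of 35986 probe sets. Per the labels' protocols, 50 ng of total RNA per sample went into amplified, labelled cDNA, and per the submitters' processing notes the values came from RMA. No RMA version, probe set definition or genome build is given in the sources used here.

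The probe set with the highest mean over 15 arrays was kept for each of 27981 loci. A RefSeq table (TAIR10.1 assembly) gave symbols and biotypes for 27241 of them. Scanner files were not used here, so detection above background was not assessed. Levels of genes are not compared with each other, and a level below the lower quartile of all loci is given only as a description on the RMA scale. The number of arrays limits the precision.

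The test was limma's moderated one (version 3.58.1, R 4.3.3), with 1 mean per time over all 15 arrays, two-sided, adjusted by Benjamini-Hochberg over all loci. Errors are moderated standard errors. On simulated data of 27981 loci for 72 h against 24 h, 57% of 100 loci changed by 1 and 97% of 100 changed by 2 were called, with 7 unchanged loci called. The simulated noise was normal, with the same spread on every array of a locus and no array that stood apart. Fewer loci were changed in it than were called in the data, so these shares may differ in the data.

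Genes named were the 15 largest rises and falls among called loci whose arrays did not overlap (leaving out organelle loci and 195 loci with values identical to another's), up to 4 called members per list and direction, the member with the largest difference of a list without calls, and 12 seed genes named in any case. Others were chosen after their values were seen, among them the OLEO2, OLEO4 and PAP85 genes, members of the lists written later, TOC1, PRR5, RVE1, ERS1 and PRL. The 41 written lists held 829 loci, of which 828 were measured. The comparison, lists and members were chosen with earlier results of these data known. Alternatives were a replicate term, repeated quantile normalization, median centring, leaving out the lowest 25% of loci, an intensity trend, array weights, every probe set, adjusted p under 0.01, the 6 compared arrays alone and leaving out each array. Promoter sequences were not used here, and 1 gene that the naming rule reaches is not reported here.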

Additional observations from a re-analysis of the deposited data

How the results depend on the processing

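The number of loci called between 72 h and 24 h was 928, with 540 rises and 388 falls. It was 784 (464 and 320) with the replicate block, in which no oil body gene was called. The labels state no pairing. Deviations of same-numbered 72 h and 24 h arrays had correlations of -0.163, -0.174 and 0.0477, against -0.118 to 0.229 for other pairs. With 3 arrays per time these cannot show whether a batch was shared. The number called was 1113 with quantile normalization repeated, 808 with each array centred on its median and 1132 without the lowest 25% of loci. It was 1127 with an intensity trend and 990 over every probe set. Array weights gave 5717 (2850 rises, 2867 falls, and 304 falls of at least 1), the 6 compared arrays alone 3184 (1656 and 1528, and 298 falls of at least 1), and adjusted p under 0.01 gave 373 (232 and 141, of which 191 and 93 by at least 1). All 928 loci were also called with weights, with the 6 arrays alone and without 2 h replicate 2. Leaving out 1 array gave 407 to 3588 calls, 245 to 1809 rises and 158 to 1779 falls, with 192 to 401 rises and 102 to 295 falls of at least 1. The top of each range is without 2 h replicate 2, and the lowest counts follow the loss of a 24 h or 72 h array. Over 200 described genes and all alternatives, 4000 values kept their side of the threshold, 743 lost a call, 52 gained one and 0 changed sign with a call. Many alternatives could not change a sign. The replicate block, the 6 arrays alone and leaving out a 0, 2 or 12 h array keep the difference as it was. In the alternative over every probe set these genes were read by the same probe set, so their other probe sets were not checked. Without 24 h replicate 2 or 3, or without any 72 h array, 404 to 484 of the 928 loci remained called. A time with 1 array removed keeps 2, and the spread is pooled over all times.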

Other observations

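Genes of small noncoding RNAs were grouped by their RefSeq biotype after the values had been seen, so the counts describe and do not test. Of 174 microRNA loci on the arrays 25 rose at 72 h against 24 h and none fell (36 rose without 2 h replicate 2), against 479 rises and 370 falls among 26474 protein-coding loci. The probe sets read RNA of the locus and not the mature microRNA, which the array does not separate. MIR824 was at 9.26, 9.17 and 9.02 at 72 h, against 7.03, 7.0 and 7.06 at 24 h (difference 2.12 ± 0.40, limma adjusted p = 0.00885). MIR846 was at 5.90, 5.93 and 5.85 at 72 h, against 4.33, 3.70 and 3.62 at 24 h (2.01 ± 0.19, adjusted p = 7.19e-05). MIR156a (1.96 ± 0.37), MIR156c (1.07 ± 0.14) and MIR156d (1.02 ± 0.16), of the family that targets SPL factors of the juvenile phase, were 3 of 8 measured MIR156 loci, and the other 5 were not called. MIR159a (1.34 ± 0.19) and MIR159b (1.28 ± 0.28) were 2 of 3 MIR159 loci, and MIR166a and MIR166b 2 of 7 MIR166 loci. Single members of their families rose with MIR167a (1.58 ± 0.25), MIR390b (1.60 ± 0.20) and MIR171b (1.47 ± 0.22). MIR156c was at 9.48, 9.63 and 9.54 at 72 h, against 8.42, 8.57 and 8.47 at 24 h, and had averaged 7.55 at 0 h. The median over all 174 was 0.04 (0.59 with the lowest 25% of loci left out), and 102 of them had a 72 h mean below 3.15, the lower quartile of all loci. Of the 25, 2 were below it at 24 h. By their reference positions, 6 of the 25 overlap another locus, and in 2 of these (MIR472 and MIR156d) that locus was called too. Of the 25 calls, 13 held without each single array, and 12 did not, MIR156a, MIR159b and MIR166b among them (highest adjusted p 0.0507 to 0.231 over the 12).

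Of 68 small nucleolar RNA loci, which guide modification of ribosomal RNA, 12 rose and none fell, beside 1.93% of all loci that rose. Without 2 h replicate 2, 36 rose, beside 6.47% of all loci. The list's median was 0.61. On all 72 h arrays 43 of the 68 were higher and 1 lower, beside 4117 and 4430 of all 27981 loci. AT3G58193 was at 6.84, 6.51 and 6.92 at 72 h, against 5.71, 5.62 and 5.52 at 24 h (difference 1.14 ± 0.14, limma adjusted p = 0.00044). This locus and AT3G58196, 2 of the 12, overlap the locus AT3G09105 in the reference. Centred on each array's median 6 rose, at a median of 0.58, and 3 of the 12 calls held without each single array (highest adjusted p of the other 9, 0.0758 to 0.179). The 38 cytosolic ribosomal protein genes had a median of -0.10 and no call, and none of 12 ribosome biogenesis genes was called.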
